A study of Rattus norvegicus with 64 samples.

Results

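The blood transcriptomes compared here came from 5 saline rats kept at 16 C and 6 saline rats kept at 22.5 C, numbered 17 to 22. They are 11 of the 64 rats of the series, and they are all of its saline controls at those temperatures that were used here. All were adult male Sprague-Dawley rats that received 4 injections of normal saline, spaced 2 h apart from early morning on, and no drug. Whole blood was drawn by cardiac puncture 3 h after the last injection and depleted of globin mRNA before sequencing. According to the series' design text both groups kept a normal body temperature, so the comparison asks what a cool room alone did to blood RNA in rats that stayed normothermic. No strain, genotype or agent separated the groups, but the sequencing project did. All 5 rats at 16 C belonged to 1 project, and rats 17 to 19 and rats 20 to 22 to 1 other project each, so that temperature and project cannot be told apart within these 11 rats.

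Cold exposure at rest is met by shivering, brown fat heat production and sympathetic outflow, and circulating leukocytes respond to the catecholamines and glucocorticoids that are released. Cells that are themselves cooled raise the RNA-binding proteins Cirbp and Rbm3, while cells that are heated raise chaperones of the Hsp70 and Hsp90 families. Interferon-stimulated genes, described at length below, are switched on in leukocytes through a signalling cascade that ends in STAT2 and IRF9, and they encode RNA sensors, guanylate-binding proteins and parts of the antigen processing machinery.

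Values are given as normalized counts, that is, RSEM expected counts (estimated numbers of reads per gene) scaled by DESeq2 size factors, and differences as log2 fold changes of the 16 C rats over the 22.5 C rats from edgeR. Total counts ran from 22818212 to 25978612 in the 16 C rats and from 24355860 to 39025229 in the 22.5 C rats. The 22.5 C rats were not alike. Rats 20 and 22 held 11909 and 13382 counts of Mb (myoglobin, a muscle oxygen store), above the 5000 that the study's methods take as heart muscle in the puncture, whereas the other 9 rats held at most 310. The study reports that its control rats above that level belonged to its last control group and were left out. It traces distorted ribosomal transcripts in that group's first libraries to a poor PCR reagent, and the remaining rats were sequenced again. The labels do not say which control group the rats here came from or which libraries these are. Any part of this in the values was not tested. Rat 19 lay with the 16 C rats: over all genes tested, the median correlation of its log2 normalized counts was 0.958 with the 16 C rats and 0.934 with the other 22.5 C rats, and the only other rat nearer to the other group than to its own was rat 22 (0.949 against 0.944). In its levels of neutrophil and monocyte genes, given below, rat 19 also sat within or near the range at 16 C. Its label was kept, and the main results are given with and without it.

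**Figure D1:**
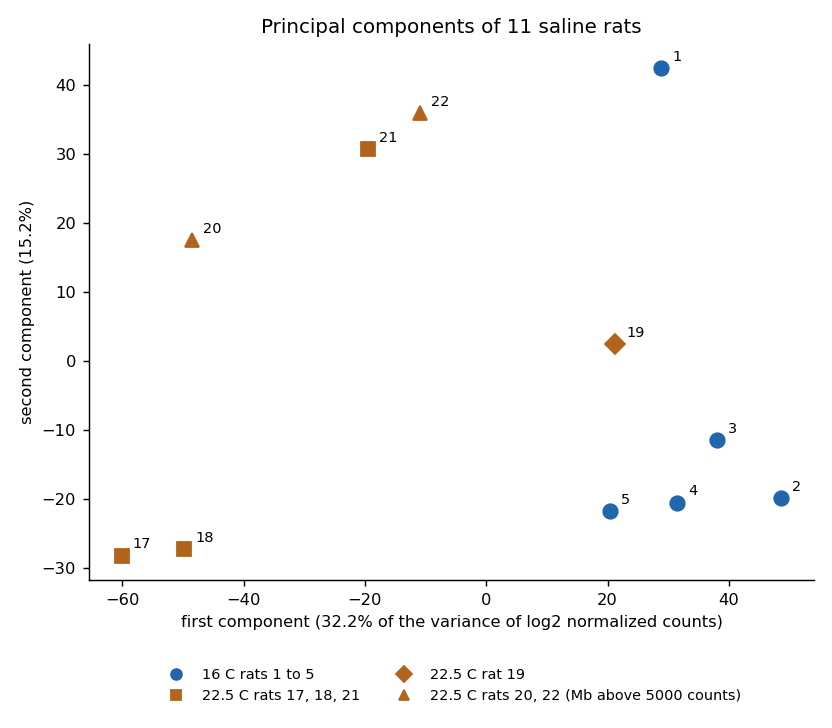
Principal components of log2 normalized counts of the genes tested, with the first component (32.2% of the variance) on the x axis and the second (15.2%) on the y axis. Each point is a rat and carries its number. The 5 rats at 16 C and rat 19 lie above 20 on the first component, and the other 5 rats at 22.5 C lie below 0.

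Of 12275 genes tested in all 11 rats, 59 were higher and 10 were lower at 16 C at an adjusted p under 0.05. Together these were 0.562% of the genes (0.481% higher and 0.0815% lower). Of the 69 genes, 39 rose and 3 fell by more than 1 on the log2 scale. The groups did not overlap in 65 of the 69. Over all genes tested, every 16 C rat lay above every 22.5 C rat in 2.44% and below in 2.1%. The smallest adjusted p was 0.018, and 3470 genes (28.3%) had an unadjusted p under 0.05.

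The count depended on which rats were included and on the scaling. With upper-quartile factors in place of TMM, 356 genes were higher and 698 lower, so that 33.8% of the calls were higher and not 85.5%, and the median log2 fold change of all genes went from -0.03 to -0.19. Without rats 20 and 22, the rats above 5000 Mb counts, edgeR called 0 genes of 11960, with 3178 (26.6%) at an unadjusted p under 0.05 and a smallest adjusted p of 0.068, while the DESeq2 Wald test called 824 higher and 483 lower in the same 9 rats. All 66 of the 69 genes that were still tested kept their direction there, and all 66 had an unadjusted p under 0.05. The 69 were chosen in a fit that holds these same 9 rats, so this is not a separate test. Without rat 19, by contrast, 1350 genes were higher (11.1%) and 1008 lower (8.28%), among them all 69. Leaving out both sets of rats gave 1436 higher (12.2%) and 751 lower (6.36%). Leaving out any other single rat left at most 9 higher and 2 lower. Since rat 19 was singled out after its values were seen, the counts without it describe how far 1 library weighs and are not a separate test.

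**Figure D2:**
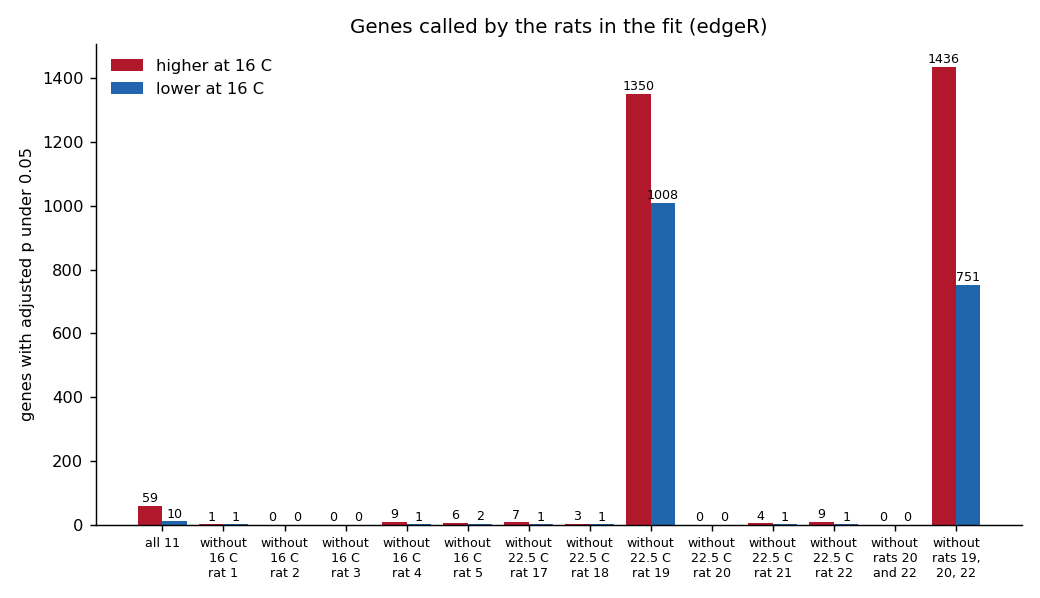
Genes with an adjusted p under 0.05 in edgeR (y axis, number of genes), higher and lower at 16 C, by the rats left out of the fit (x axis). The count was 59 and 10 with all 11 rats, 1350 and 1008 without rat 19, and 0 and 0 without rats 20 and 22.

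Project could be entered as a term only by adding the amphetamine and heat-exposed rats of the series, a few of which shared the projects of the saline rats (in the project of the 16 C rats, 1 amphetamine rat at each temperature and 1 rat at 39 C). In that fit of 64 rats 0 genes were higher and 1 was lower of 13978 (0.00715%), with 1273 at an unadjusted p under 0.05. The gene that passed was Myh11, the smooth muscle myosin heavy chain, at 1.38, 5.23, 1.42, 1.2 and 8.5 normalized counts in the 16 C rats and 13.8 to 27.3 in the 22.5 C rats, close to the 10 counts of the filter. Of the 69 genes called without project, 67 kept their direction with it and 40 had an unadjusted p under 0.05. The 64 rats include the saline rats in which the 69 were chosen, so this is not a separate test either. Within the 22.5 C group, rats 20 to 22 differed from rats 17 to 19 in 29 of 12753 genes (0.227%), of which 0 were among the 69. Such genes spread widely within the 22.5 C group, which works against a call at 16 C. The 0 therefore cannot decide the part of project in the 69.

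Interferon-stimulated genes were the group with the most calls. Of the 29 members of the list, all tested, 7 were higher at 16 C and 0 were lower, against 0.481% higher over all genes. The fold change was above 0 in 25 of 29 (46.9% of all genes), and the median was 0.77 beside -0.03 for all genes. The 16 C rats lay wholly above the 22.5 C rats in 12 of 29, against 2.44% of all genes. None of the 29 passed without rats 20 and 22, where the median was 0.68 and 16 had an unadjusted p under 0.05 (12.9% of all genes, higher). Without rat 19, 15 passed (11.1% of all genes, higher). With project as a term 28 of 29 were positive with a median of 1.16, 15 had an unadjusted p under 0.05 (3.73% of all genes, higher) and 0 passed.

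The sequences before the start sites of 4 of these 7 genes are printed below because they carry the motif to which the interferon-activated factors bind, the interferon-stimulated response element. The letters searched were GAAANNGAAA on both strands of the 250 bases before the gene start, in RefSeq promoters of build GRCr8. Capitals mark the match, which reads TTTCNNTTTC where it lies on the other strand; each region is written in the direction of its gene.
Gbp2, chr2:234005477-234005726, plus strand: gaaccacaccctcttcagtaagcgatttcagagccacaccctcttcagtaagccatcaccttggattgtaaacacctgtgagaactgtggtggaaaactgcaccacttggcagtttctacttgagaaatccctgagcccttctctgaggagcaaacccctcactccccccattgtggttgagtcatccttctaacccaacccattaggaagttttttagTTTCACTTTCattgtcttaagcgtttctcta
Ifit3, chr1:241527076-241527325, plus strand: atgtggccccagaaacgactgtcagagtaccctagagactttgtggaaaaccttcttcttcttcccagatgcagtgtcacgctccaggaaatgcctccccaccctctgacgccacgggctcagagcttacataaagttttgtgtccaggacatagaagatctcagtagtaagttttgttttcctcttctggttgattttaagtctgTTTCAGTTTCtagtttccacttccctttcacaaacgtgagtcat
Ifih1, chr3:67683969-67684218, minus strand: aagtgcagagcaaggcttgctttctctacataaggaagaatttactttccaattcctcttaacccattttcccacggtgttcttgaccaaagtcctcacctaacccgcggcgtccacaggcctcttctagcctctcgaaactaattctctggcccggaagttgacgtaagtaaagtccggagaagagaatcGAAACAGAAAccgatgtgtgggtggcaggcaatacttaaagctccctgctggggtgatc
Tap1, chr20:4668544-4668793, minus strand: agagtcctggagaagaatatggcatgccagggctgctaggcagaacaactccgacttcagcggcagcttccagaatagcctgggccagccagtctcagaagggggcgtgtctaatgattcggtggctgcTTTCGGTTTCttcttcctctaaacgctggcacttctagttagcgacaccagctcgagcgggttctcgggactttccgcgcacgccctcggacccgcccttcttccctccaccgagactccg
The match began 31 bases before the start of Gbp2, 44 before Ifit3, 59 before Ifih1 and 121 before Tap1. Of the 29 members 19 had an entry in the promoter table, and 12 of the 19 (63.2%) held a match, against 1140 of all 33469 promoters (3.41%). The list was drawn up from genes known to be switched on by interferon, so this share describes the list and says nothing about the rats compared. Among the 7 genes called, Oasl had an entry without a match, and Isg15 and Ifit2 had none in the table. Matches stood also before Oas1a, Oas1b, Oas3, Irf7, Ifitm3, Bst2, Gbp5 and Rsad2, which did not pass the test.

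Gbp2, a guanylate-binding GTPase that acts on intracellular microbes, had the smallest p of all genes. Its normalized counts were 5193, 11334, 8126, 6513 and 5715 in the 16 C rats 1 to 5, a mean of 7376 ± 2475 (SD, n = 5), and ran from 1411 to 3044 (median 1801) in the 22.5 C rats, a mean of 1987 ± 581 (SD, n = 6). The groups did not overlap, and the highest of the 22.5 C rats was rat 19 at 3044. The log2 fold change was 1.89 ± 0.24 (SE, adjusted p = 0.018), and it was 1.82 ± 0.30 without rats 20 and 22 and 2.20 ± 0.50 with project.

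Ifit3 and Ifit2 encode tetratricopeptide proteins that bind foreign RNA. In the 16 C rats Ifit3 stood at 27698, 26475, 29620, 23248 and 41808 normalized counts, against 4338 to 13219 (median 7726) at 22.5 C, where rats 19 and 21 were the highest at 13210 and 13219. All 5 rats at 16 C were above them, for a log2 fold change of 1.74 ± 0.28 (SE, adjusted p = 0.032). Ifit2 was at 4628, 3971, 3248, 2948 and 6041 normalized counts at 16 C and 988 to 2212 (median 1204) at 22.5 C, again with rat 19 (2212) the highest and again without overlap, a difference of 1.61 ± 0.25 (SE, adjusted p = 0.032).

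Isg15, an interferon-induced ubiquitin-like protein that is attached to other proteins, reached 6810, 6173, 7692, 4062 and 8553 normalized counts at 16 C and 1046 to 3149 (median 1778) at 22.5 C. Here rat 18 (3149) and not rat 19 (1876) came nearest to the 16 C rats. The difference was 1.79 ± 0.29 (SE, adjusted p = 0.032). Its deconjugating enzyme Usp18 was at 585 to 1371 against 348 to 573, likewise without overlap, but at 1.00 ± 0.22 its adjusted p of 0.054 did not pass.

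Tap1, a subunit of the peptide transporter that loads class I antigen, rose by 0.88 ± 0.15 (SE, adjusted p = 0.038) on the log2 scale. Its normalized counts were 3011, 3589, 3183, 2694 and 3190 at 16 C and 1399 to 2344 (median 1632) at 22.5 C, where rat 19 (2344) was again the highest. The immunoproteasome subunit Psmb9, whose gene is the neighbour of Tap1, had a fold change of 0.77 ± 0.17 (SE, adjusted p = 0.054), with 2828 to 4927 normalized counts against 1480 to 2459 and no overlap. Psmb8, a second subunit of the same particle, was at 0.23 ± 0.16 (SE, adjusted p = 0.36) and its groups overlapped.

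Sensors of double-stranded RNA were higher in part. Ifih1 (MDA5) stood at 1099, 792, 839, 873 and 1052 normalized counts at 16 C and 380 to 686 (median 497) at 22.5 C, and rose by 0.88 ± 0.17 (SE, adjusted p = 0.046). Eif2ak2 (PKR), outside the list and chosen after its values were seen, rose by 1.05 ± 0.19 (SE, adjusted p = 0.042), with 947 to 1742 against 507 to 838. The related sensor Ddx58 (RIG-I) was at -0.02 ± 0.28 (SE, adjusted p = 0.96), and Dhx58 (LGP2) was at 0.46 ± 0.20 (SE, adjusted p = 0.16).

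The oligoadenylate synthetase family, most members of which make the messenger that activates RNase L, was higher in part. Oasl rose by 1.28 ± 0.25 (SE, adjusted p = 0.046), with 2786, 3311, 2623, 2187 and 3406 normalized counts at 16 C and 720 to 1951 (median 1032) at 22.5 C. For the other members the log2 fold changes were 1.09 ± 0.35 for Oas1a, 1.04 ± 0.25 for Oas1b, 1.05 ± 0.36 for Oas2 and 1.43 ± 0.40 for Oas3, with adjusted p values of 0.083, 0.055, 0.097 and 0.063. In Oas3 rat 19 held 1493 normalized counts and the other 22.5 C rats at most 666, against 1224 to 2020 at 16 C, and without rat 19 the adjusted p was 0.00059.

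Of the transcription factors that carry the interferon signal, Stat2 was at 0.83 ± 0.19 (SE, adjusted p = 0.054), Irf9 at 0.53 ± 0.13 (SE, adjusted p = 0.055) and Irf1 at 0.68 ± 0.24 (SE, adjusted p = 0.098), so that none of these passed. In Stat2 every 16 C rat (1970 to 3443 normalized counts) exceeded every 22.5 C rat (1127 to 1810), and the same was true of Irf9. Irf7 overlapped widely, with 16722 to 67584 normalized counts at 16 C and 13587 to 35599 at 22.5 C.

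Several well known interferon-stimulated genes did not pass. Mx1, a GTPase that blocks viral replication, was at 2324, 1930, 2079, 1983 and 3259 normalized counts at 16 C and 1572 to 3811 (median 2819) at 22.5 C, a log2 fold change of -0.28 ± 0.22 (SE, adjusted p = 0.42). Rsad2 (viperin) was at -0.17 ± 0.24 (SE, adjusted p = 0.66) and Ifit1 at 0.15 ± 0.56 (SE, adjusted p = 0.88), and in both the groups overlapped. In Ifit1 rat 17 held 376 normalized counts and the other 10 rats 4333 or more. Mx2 (-0.20 ± 0.32), Gbp5 (0.26 ± 0.14), Rtp4 (0.55 ± 0.41) and Ifitm3 (0.97 ± 0.73) did not pass either. A p that misses the threshold does not show that a gene was unchanged.

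**Figure D3:**
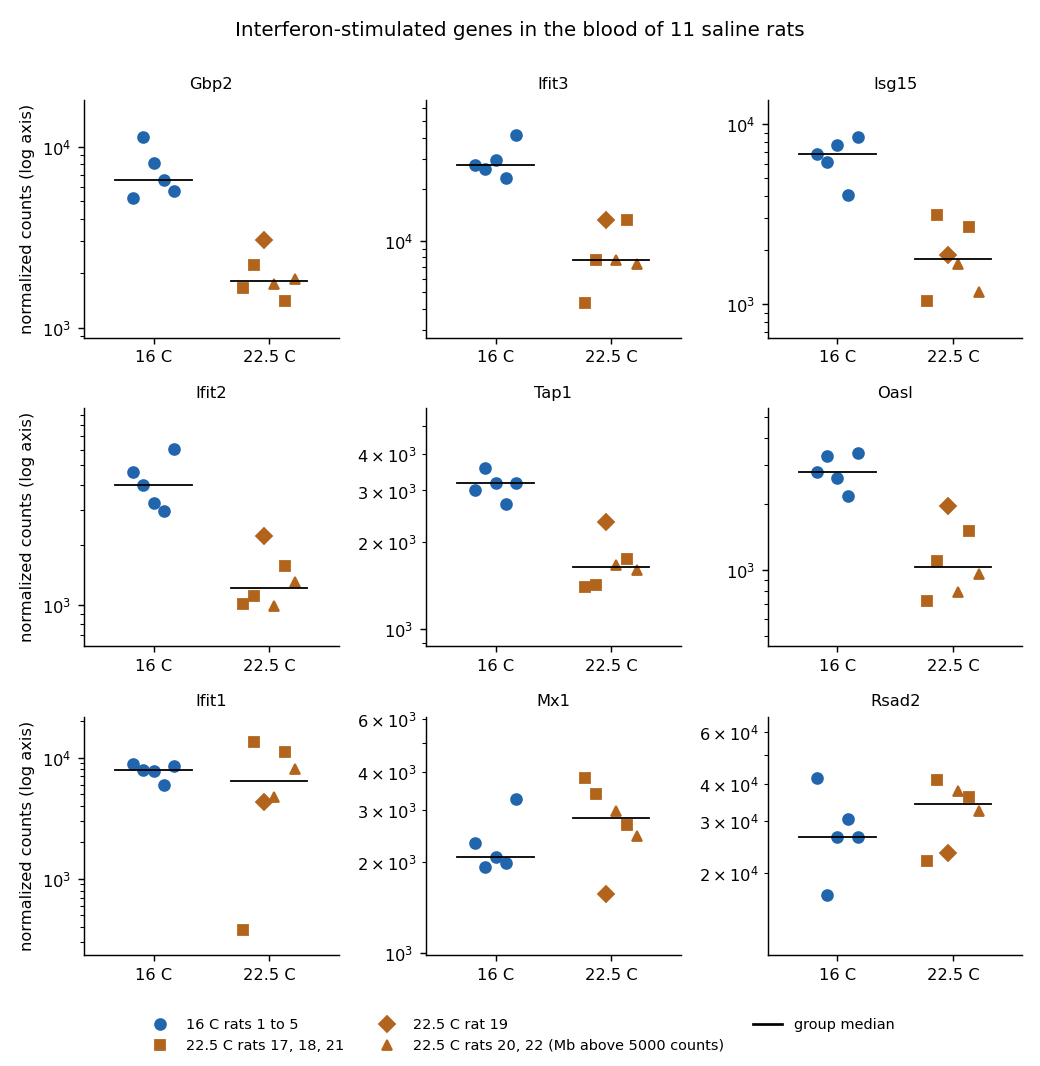
Normalized counts (y axes, log scale) of 9 interferon-stimulated genes in the 5 rats at 16 C and the 6 rats at 22.5 C, with a line at each group's median. The groups do not overlap for Gbp2, Ifit3, Isg15, Ifit2, Tap1 and Oasl and overlap for Ifit1, Mx1 and Rsad2.

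Outside that list, the largest rise among genes with a symbol and at least 100 normalized counts was that of Clec4b2, a C-type lectin receptor. It stood at 747, 734, 1562, 649 and 533 normalized counts at 16 C and 53.8 to 359 (median 107) at 22.5 C, and rose by 2.61 ± 0.47 (SE, adjusted p = 0.046). The highest of the 22.5 C rats was rat 19 at 359. Olr1, the receptor for oxidised LDL, was at 935 to 1703 against 172 to 756, with 756 in rat 19, and rose by 1.93 ± 0.37 (SE, adjusted p = 0.046).

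Cpne8, a calcium-dependent membrane-binding protein, rose by 2.25 ± 0.43 (SE, adjusted p = 0.046) and Tmco4, a membrane protein of little known function, by 2.06 ± 0.40 (SE, adjusted p = 0.046). Rat 19 was again the highest 22.5 C rat for both, at 971 and 815 normalized counts, and the next held 456 and 276. Tifa, an adaptor that activates NF-kB through TRAF6, rose by 1.63 ± 0.30 (SE, adjusted p = 0.046), and Atf3, a stress-induced repressor of cytokine genes, by 1.67 ± 0.33 (SE, adjusted p = 0.046). Hdac6, a cytoplasmic deacetylase, rose by 1.79 ± 0.29 (SE, adjusted p = 0.032). It is listed under 2 identifiers with the same value in every rat, which are 1 measurement counted as 2 calls.

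Fewer genes were lower. The 3 that fell by more than 1 on the log2 scale, among them Myh11, all had means under 100 normalized counts in both groups. Of the rest, those with the smallest p were B3galnt2 (a glycosyltransferase), Txndc16, Tbcd (a tubulin-folding cofactor), Mtr (methionine synthase), Pnn (a splicing-associated protein) and Plekha1. Mtr had the largest change at -0.94 ± 0.18 (SE, adjusted p = 0.046), with 85.6, 58.9, 76.5, 84.2 and 75.3 normalized counts at 16 C and 106 to 183 (median 143) at 22.5 C. Pnn was at 1221, 1502, 1355, 1264 and 1390 against 1695 to 2136 (median 2035), a change of -0.55 ± 0.11 (SE, adjusted p = 0.046). The groups did not overlap in any of the 6. With project as a term their changes lay between -0.77 (Tbcd) and 0.15 (Plekha1, now positive).

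Neither Cirbp nor Rbm3, the genes by which cooled cells are known, rose. Cirbp stood at 555, 540, 388, 535 and 663 normalized counts at 16 C and 468 to 969 (median 634) at 22.5 C, a log2 fold change of -0.33 ± 0.19 (SE, adjusted p = 0.27). Rbm3 stood at 2690, 1853, 2788, 2769 and 2937 against 2472 to 3728 (median 2821), a change of -0.15 ± 0.16 (SE, adjusted p = 0.53). Rbmx, a splicing-related RNA-binding protein listed with them, was at -0.51 ± 0.15 (SE, adjusted p = 0.072). It fell past the threshold without rat 19 (log2 fold change -0.60 ± 0.15 SE, adjusted p = 0.02). All 3 were below 0, beside a median of -0.03 for all genes. Without rats 20 and 22 all 3 were again below 0 (47.6% of all genes were above 0), with a median of -0.48, and with project as a term 1 of 3 was above 0.

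Of 25 heat shock chaperones tested, 0 passed in either direction and 9 were above 0. Their median was -0.12, and 0.05 without rats 20 and 22, so no direction is given. Hspa8, the constitutive Hsp70, was at 18131, 20708, 18743, 17871 and 13057 normalized counts at 16 C and 11946 to 21381 (median 13660) at 22.5 C (log2 fold change 0.24 ± 0.18 SE, adjusted p = 0.38). Hspa1b, the heat-inducible Hsp70, was barely detected in either group, at 8.42 to 17 and 11.7 to 23.2 normalized counts. Dnaja1 (0.62 ± 0.27), Hsp90aa1 (0.49 ± 0.22) and Dnajb1 (0.30 ± 0.15) had the smallest p beside Dnajb6.

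Genes of heat production and of stress hormones gave no calls. For Ucp2, a mitochondrial carrier related to the uncoupling protein of brown fat and abundant in leukocytes, the 16 C rats held 312113, 182820, 163908, 167438 and 188280 normalized counts and the 22.5 C rats 96511 to 221746 (median 159047) (log2 fold change 0.33 ± 0.24 SE, adjusted p = 0.39); rat 1 stood far above the others of its group. Of the 19 tested genes of fatty acid use and thermogenesis 0 passed. Ppard, a lipid-sensing nuclear receptor, was at 1.44 ± 0.31 (SE, adjusted p = 0.052), Plin2, a lipid droplet coat protein, at 1.03 ± 0.33 (SE, adjusted p = 0.083), Acadvl, an enzyme of mitochondrial beta-oxidation, at -0.57 ± 0.15 (SE, adjusted p = 0.058), and Cpt1b, the muscle form of carnitine palmitoyltransferase, at -1.22 ± 0.43 (SE, adjusted p = 0.10). All of these passed without rat 19. In that fit 2 of the 19 were higher and 2 lower, shares near those of all genes (11.1% higher and 8.28% lower). Cpt1b was highest in rats 20 and 22 (100 and 157 normalized counts, elsewhere at most 73.2), the rats with the high Mb counts.

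Of 18 genes of adrenergic and cyclic AMP signalling 0 passed. Creb1, the cyclic AMP response element binding protein, and the phosphodiesterase Pde3b had opposite signs at 0.51 ± 0.14 (SE, adjusted p = 0.063) and -0.49 ± 0.14 (SE, adjusted p = 0.071), and both passed without rat 19. In that fit 2 of the 18 were higher and 1 lower, shares near those of all genes (11.1% higher and 8.28% lower).

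The 20 glucocorticoid-responsive genes gave 0 calls with all rats and were split, with 10 above 0. Without rat 19, 4 of the 20 were higher and 3 lower, beside 11.1% higher and 8.28% lower of all genes. Fkbp5, which moderates the glucocorticoid receptor, was at 1082, 730, 832, 936 and 793 normalized counts at 16 C and 581 to 1965 (median 1040) at 22.5 C (log2 fold change -0.35 ± 0.30 SE, adjusted p = 0.45), and its highest value was that of rat 19 (1965). Anxa1 (annexin A1, an anti-inflammatory protein abundant in neutrophils) was at 36341, 36851, 65492, 66202 and 27087 against 3789 to 29819 (median 8074), with 29819 in rat 19, a change of 1.89 ± 0.48 (SE, adjusted p = 0.055) with all rats and 2.33 ± 0.40 (SE, adjusted p = 0.0032) without rat 19.

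Of 15 clock genes tested 0 passed with all rats, and 2 were higher and 2 lower without rat 19, shares near those of all genes in that fit (11.1% higher and 8.28% lower). Per2, a repressor in the clock loop, was at 859, 1192, 1044, 1001 and 866 normalized counts at 16 C, while at 22.5 C rat 19 held 921 and the other 5 rats from 285 to 376 (log2 fold change 1.16 ± 0.27 SE, adjusted p = 0.055 with all rats, log2 fold change 1.48 ± 0.12 SE, adjusted p = 0.00025 without rat 19). Per1 had the opposite sign, at 159 to 220 against 224 to 389 (log2 fold change -0.58 ± 0.16 SE, adjusted p = 0.06), as did the output factor Tef (log2 fold change -0.56 ± 0.13 SE, adjusted p = 0.055) and the repressor Nr1d2 (log2 fold change -0.74 ± 0.27 SE, adjusted p = 0.11).

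No leukocyte marker passed with all 11 rats, and of their summed levels only those of T cells did not overlap between the groups. In whole blood, fewer cells of a type cannot be told apart from less RNA per cell. Normalized counts are relative, so more RNA from other cells cannot be told apart from these either. Neutrophil markers summed to 621264, 1067790, 963042, 719929 and 456318 normalized counts in the 16 C rats. At 22.5 C the sums ran from 41975 to 562293 (median 166548), and only rat 19 (562293) reached the range at 16 C. Of 14 markers tested, 11 were above 0 with a median of 0.82, and 0 passed. Without rat 19, 7 passed, where 11.1% of all genes were called higher, and with project as a term the median was 0.98 with 0 calls.

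S100a8 and S100a9, the subunits of calprotectin, were among the most abundant of these. S100a9 stood at 348501, 623697, 572029, 418154 and 271246 normalized counts at 16 C, and at 22.5 C at 306746 in rat 19 and from 21240 to 207722 in the other 5 (log2 fold change 1.79 ± 0.58 SE, adjusted p = 0.083 with all rats, log2 fold change 2.24 ± 0.54 SE, adjusted p = 0.016 without rat 19). Csf3r, the G-CSF receptor, was at 26657, 43874, 30007, 25347 and 23267 against 4100 to 25920, where rat 19 held the highest value and the next was 8816 (log2 fold change 1.62 ± 0.42 SE, adjusted p = 0.059 and, without rat 19, log2 fold change 2.18 ± 0.23 SE, adjusted p = 0.00035). Camp, the cathelicidin of neutrophil granules, overlapped, at 1311 to 3363 against 306 to 3509 (log2 fold change 0.80 ± 0.58 SE, adjusted p = 0.38).

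Monocyte markers were mixed. Their sum lay from 317283 to 597659 at 16 C and from 102107 to 465324 at 22.5 C, with rat 19 at 465324, and 7 of 13 tested were above 0. The chemokine receptor Ccr1 was at 6152, 9812, 12825, 10167 and 6059 normalized counts at 16 C, at 7700 in rat 19 and from 785 to 3731 in the other 22.5 C rats (log2 fold change 1.48 ± 0.47 SE, adjusted p = 0.081). Nos2, the inducible nitric oxide synthase, was at 4721, 7370, 2829, 3591 and 3133 against 2832 in rat 19 and from 222 to 1368 elsewhere (log2 fold change 2.13 ± 0.64 SE, adjusted p = 0.072). Cd14, the endotoxin co-receptor, was at 169 to 570 against 108 to 639 (log2 fold change -0.01 ± 0.50 SE, adjusted p = 0.99).

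T cell markers pointed lower together. All 18 were tested, all 18 had a fold change below 0 and all 18 had an unadjusted p under 0.05 (13.2% of all genes, lower), although 0 passed after adjustment. Their sum was 25452, 21461, 23552, 17683 and 20406 normalized counts at 16 C and ran from 26603 to 38525 (median 31261) at 22.5 C, so that the sums did not overlap, rat 19 being the lowest of the 22.5 C rats. The median was -0.50. Cd3e, a chain of the T cell receptor complex, was at 1343, 1236, 1257, 1040 and 1042 against 1568 to 2749 (median 1895) (log2 fold change -0.77 ± 0.17 SE, adjusted p = 0.052), without overlap. Cd4 was at -0.93 ± 0.25 (SE, adjusted p = 0.059) and Cd8b at -0.82 ± 0.20 (SE, adjusted p = 0.055). Without rat 19, 15 of 18 passed (8.28% of all genes, lower), and without rats 20 and 22, 13 had an unadjusted p under 0.05 (13.7% of all genes, lower) and 0 passed. With project as a term the median was -0.16 and 1 had an unadjusted p under 0.05 (5.37% of all genes, lower), and the part of the project in this difference cannot be told apart from that of temperature.

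B cell markers overlapped in all 14 tested. They summed to 40976 to 70875 normalized counts at 16 C and 33794 to 93332 at 22.5 C, with rat 19 the lowest. Cd79b, the signalling chain of the B cell receptor, overlapped widely (log2 fold change -0.18 ± 0.31 SE, adjusted p = 0.73). NK and cytotoxic markers summed to 33289 to 53725 and 17602 to 38777, and of 15 tested 0 passed. Eosinophil and basophil markers gave 0 calls of 10 tested.

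Platelet markers were all above 0, 15 of 15, with a median of 0.56 and 0 calls, against 46.9% of all genes above 0. Ppbp, the platelet chemokine precursor, was at 207, 344, 563, 410 and 386 normalized counts at 16 C and 77.7 to 257 (median 127) at 22.5 C (log2 fold change 1.30 ± 0.34 SE, adjusted p = 0.058). Pf4 (platelet factor 4) overlapped, at 55057 to 100734 against 15501 to 70580 (log2 fold change 0.77 ± 0.33 SE, adjusted p = 0.15), and rat 21 held its lowest value (15501). Red cell markers, of which Hba-a2 remained among the most abundant transcripts after globin depletion, overlapped throughout. Hba-a2 was at 796331 to 1794680 against 867913 to 2256210 (0.07 ± 0.30), and Alas2, the first enzyme of heme synthesis in red cell precursors, at 293147 to 494707 against 193104 to 368056 (log2 fold change 0.46 ± 0.20 SE, adjusted p = 0.16).

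Heart muscle genes marked single rats and not a group. The sum of 25 markers was 39226 and 50504 normalized counts in rats 20 and 22 and between 127 and 1247 in the other 9 rats. Mb stood at 181, 2.62, 4.25, 2.41 and 7.29 normalized counts in the 16 C rats and at 0, 4.46, 5.01, 10281, 224 and 12607 in rats 17 to 22. Fewer than 5 rats had 10 counts of it, so it was not tested. Albumin (Alb), a product of the liver, was at 1673 normalized counts in rat 21 and at most 21.7 in the other 10.

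**Figure D4:**
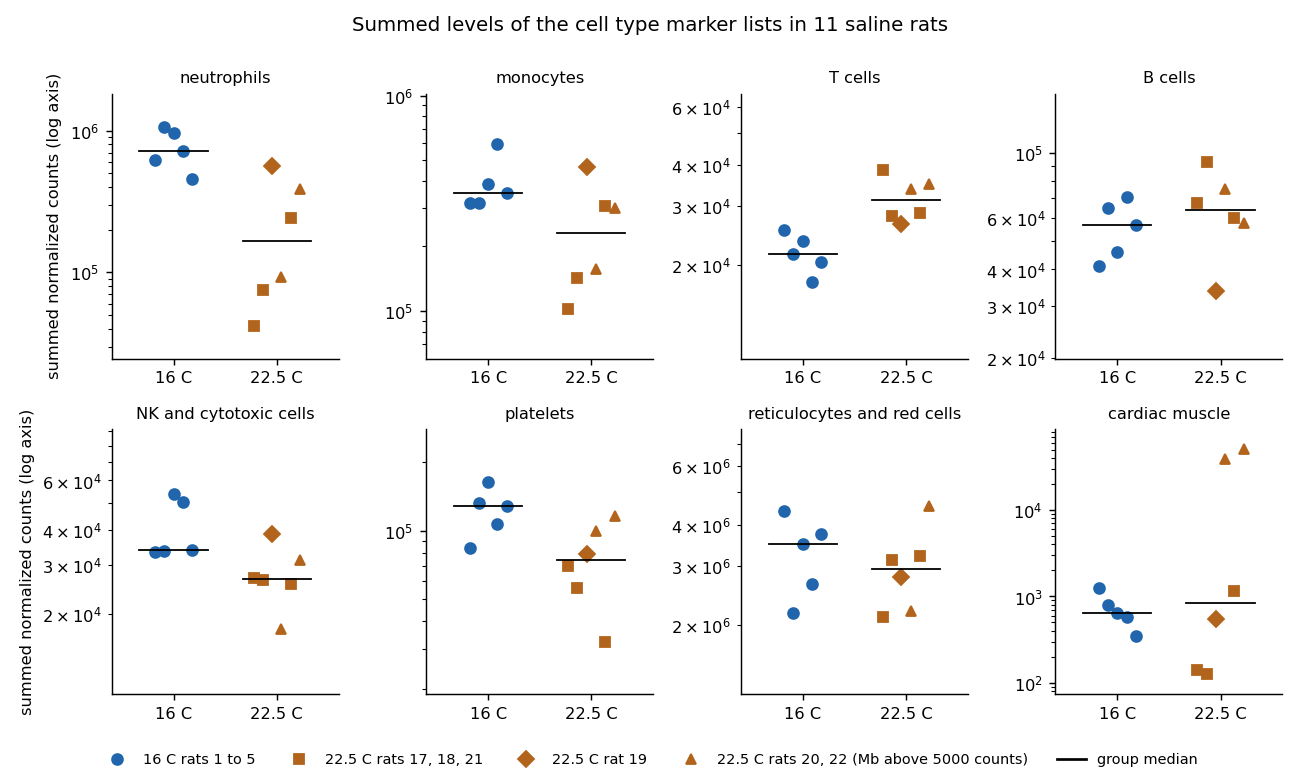
Summed normalized counts (y axes, log scale) of 8 lists of cell type markers in the 5 rats at 16 C and 6 rats at 22.5 C, with a line at each group's median. Rat 19 lies with the 16 C rats for neutrophils and monocytes, T cell sums do not overlap, and the heart muscle sum is 39226 or more in rats 20 and 22 and at most 1247 in the other 9 rats.

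Of 19 tested cytokines and NF-kB feedback genes 0 passed with all rats, while 11 had an unadjusted p under 0.05 and a fold change above 0 (15.1% of all genes, higher), and 10 of 18 passed without rat 19 (11.1% of all genes). Neutrophil sums, given above, were high in the same rats, and their part in these values was not tested. Il1b (interleukin-1 beta) was at 22828, 41077, 30295, 35227 and 28726 normalized counts at 16 C, at 25136 in rat 19 and from 4463 to 11106 in the other 22.5 C rats (log2 fold change 1.48 ± 0.36 SE, adjusted p = 0.055 and, without rat 19, log2 fold change 1.85 ± 0.24 SE, adjusted p = 0.00088). Its antagonist Il1rn was at 9611 to 17342 against 1978 to 10484 (log2 fold change 1.46 ± 0.38 SE, adjusted p = 0.057). Ptgs2, the inducible cyclooxygenase, was at 76.5 to 106 against 18.8 to 64.2 (log2 fold change 1.15 ± 0.30 SE, adjusted p = 0.056), without overlap.

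Of 21 immediate early genes 1 passed, Atf3 (0.481% of all genes, higher), and 13 of 20 were higher without rat 19 (11.1% of all genes). With project as a term the median went from 0.52 to 0.39, with 0 calls. The summed level of the list was 36937 to 58602 normalized counts at 16 C, 52483 in rat 19 and at most 26954 in the other 22.5 C rats, and the part of the neutrophils, whose sums were high in the same rats, was not tested. Ier3, an early survival gene, was at 1059, 1544, 745, 571 and 367 normalized counts at 16 C and 59 to 498 (median 171) at 22.5 C (log2 fold change 1.85 ± 0.58 SE, adjusted p = 0.077). Jun was at 405, 458, 221, 159 and 220 against 36.3 to 190 (median 97.2) (log2 fold change 1.52 ± 0.39 SE, adjusted p = 0.056), and rat 19 held its highest value at 22.5 C (190). Rat 1 was the highest 16 C rat for Atf3 (365) and rat 2 for Ier3 and Jun.

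Antioxidant genes were above 0 in 18 of 20, with a median of 0.42 and 0 calls. Without rat 19, 7 of the 20 were higher (11.1% of all genes). With project as a term 16 of 20 were above 0 with a median of 0.64. Sod2, the mitochondrial superoxide dismutase, was at 28474, 53324, 47634, 46045 and 29795 normalized counts at 16 C and 4701 to 23058 (median 9637) at 22.5 C, without overlap (log2 fold change 1.78 ± 0.36 SE, adjusted p = 0.052). Txnrd1 (thioredoxin reductase) was at 1.78 ± 0.46 (SE, adjusted p = 0.056) and Prdx5 (a peroxiredoxin) at 1.67 ± 0.42 (SE, adjusted p = 0.055). In both, rat 19 was the highest 22.5 C rat.

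The 28 genes of hypoxia and glycolysis had a median of 0.68, with 22 above 0, 0 calls with all rats and 14 higher without rat 19 (11.1% of all genes). With project as a term the median was 0.27, and 1 had an unadjusted p under 0.05 and a fold change above 0 (3.73% of all genes). Tpi1 (triosephosphate isomerase) was at 3198 to 5407 against 998 to 3092 without overlap (log2 fold change 1.09 ± 0.26 SE, adjusted p = 0.055). Ldha was at 0.68 ± 0.21 (SE, adjusted p = 0.077), Slc2a1 (the glucose transporter GLUT1) at 1.14 ± 0.33 (SE, adjusted p = 0.07) and Egln1 (an oxygen-sensing prolyl hydroxylase) at 0.71 ± 0.22 (SE, adjusted p = 0.076).

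All 18 genes of endoplasmic reticulum stress were above 0, with a median of 0.44 and 0 calls. Without rat 19, 4 of the 18 were higher (11.1% of all genes). With project as a term, however, 10 of 18 were above 0 with a median of 0.08, and 0 had an unadjusted p under 0.05. Atf6, a sensor of unfolded protein, was at 761, 780, 874, 801 and 697 normalized counts at 16 C and 319 to 636 (median 419) at 22.5 C, without overlap (log2 fold change 0.83 ± 0.17 SE, adjusted p = 0.052). Xbp1 was at 2739 to 6133 against 3044 in rat 19 and from 649 to 2036 in the other 5 (log2 fold change 1.45 ± 0.40 SE, adjusted p = 0.062).

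Rps20, a protein of the small ribosomal subunit, was the 1 of 74 ribosomal protein genes that passed (0.481% of all genes, higher). It was at 16162, 17266, 20856, 16478 and 15577 normalized counts at 16 C and 5804 to 11114 (median 7754) at 22.5 C (log2 fold change 1.11 ± 0.17 SE, adjusted p = 0.032). With project as a term its log2 fold change was 0.71 ± 1.59 (SE). The list's median was 0.20 with 54 of 74 above 0. It was 0.42 against rats 17 to 19 alone (71 above 0), -0.05 against rats 20 to 22 alone (28 above 0) and 0.68 with project as a term, so its direction depended on which 22.5 C rats were used. Of the other members, Rpl37 (log2 fold change 0.66 ± 0.20 SE, adjusted p = 0.072), Rps29 (log2 fold change 0.65 ± 0.17 SE, adjusted p = 0.059) and Rpl12 (log2 fold change 0.63 ± 0.17 SE, adjusted p = 0.063) came next. Ribosomal protein genes have many processed copies among which expected counts can be divided. A symbol with several identifiers was counted by the 1 with the highest mean. The study lists a further identifier for Rps20, whose values are not given here.

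Of 87 nuclear-encoded respiratory chain genes 0 passed, the median being 0.10. Cox6b1 (log2 fold change 0.65 ± 0.17 SE, adjusted p = 0.059) and Ndufv3 (log2 fold change -0.47 ± 0.12 SE, adjusted p = 0.055) had opposite signs. The 39 proteasome subunits had a median of 0.15, with Psmb9 of the immunoproteasome and Psmd8 (log2 fold change 0.60 ± 0.16 SE, adjusted p = 0.06) leading. Under upper-quartile scaling the medians of the respiratory chain (-0.05), the glucocorticoid-responsive genes (-0.04) and the monocyte markers (-0.08) were below 0 and that of the proteasome was at 0, so no direction is given for these lists.

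Of 28 cell cycle genes 6 were above 0, with a median of -0.31 and 0 calls, and with project as a term 16 were above 0 with a median of 0.12. The replicative helicase subunits Mcm6 (log2 fold change -0.62 ± 0.15 SE, adjusted p = 0.055) and Mcm7 (log2 fold change -0.49 ± 0.17 SE, adjusted p = 0.094) were below 0. Rrm2, a subunit of ribonucleotide reductase, ran against the list at 11922, 10916, 6532, 4650 and 7557 normalized counts at 16 C, 4520 in rat 19 and from 279 to 1793 in the other 22.5 C rats (log2 fold change 2.58 ± 0.65 SE, adjusted p = 0.055), without overlap. Of 35 histone genes tested 0 passed, and H3f3b, the replacement histone H3.3, had the smallest p (log2 fold change 0.89 ± 0.19 SE, adjusted p = 0.052).

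**Figure D5:**
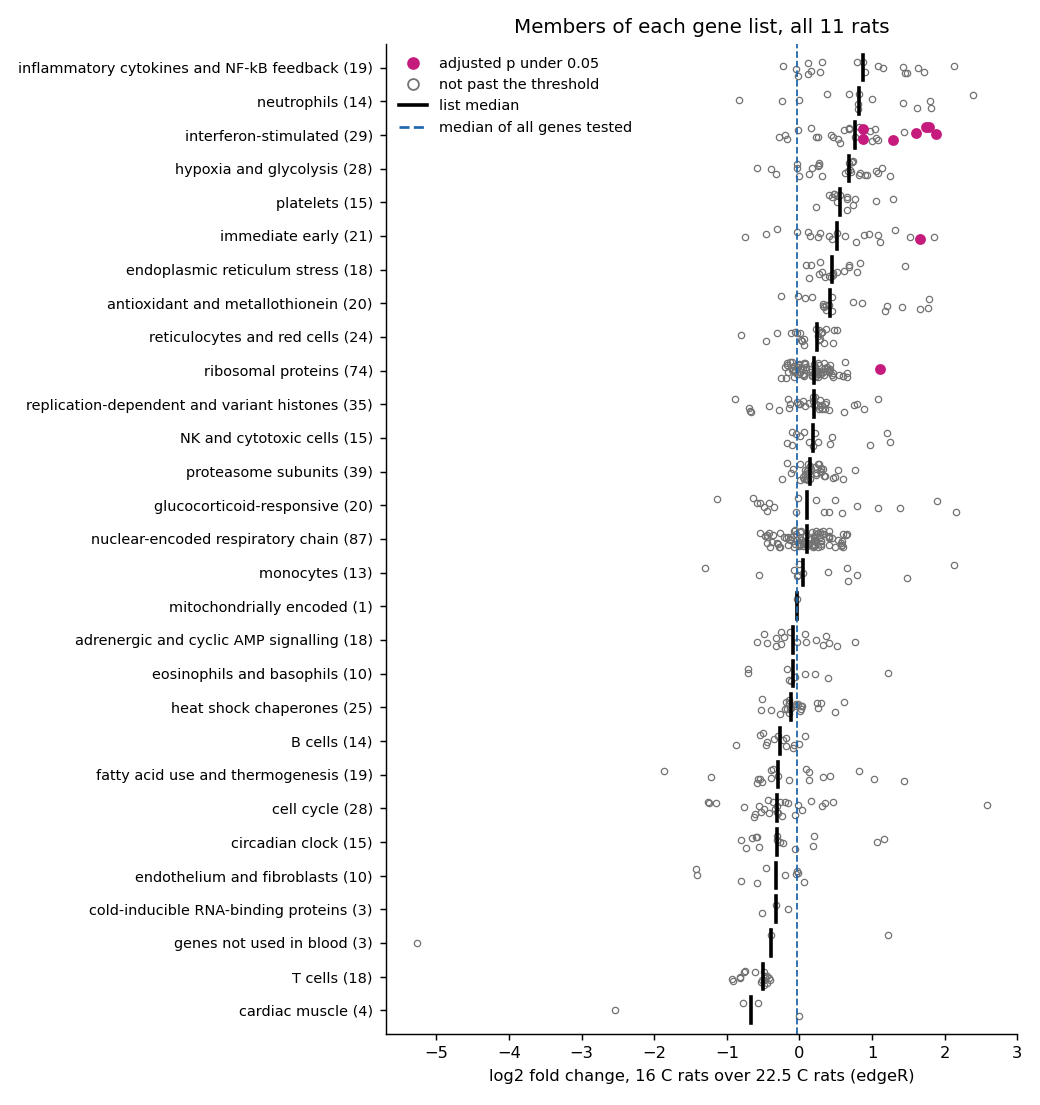
Log2 fold changes of the 16 C over the 22.5 C rats (x axis, edgeR, all 11 rats) for the tested members of each gene list (y axis, number tested in brackets). Filled points passed an adjusted p under 0.05, thick bars are list medians and the dashed line is the median of all genes tested (-0.03). The interferon-stimulated list holds 7 filled points, and the immediate early and ribosomal lists hold 1 each.

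The same room temperatures were also used for rats given amphetamine, 15 at 16 C and 22 at 22.5 C. The labels call the amphetamine rats at 22.5 C hyperthermic and those at 16 C normothermic. Both saline groups kept a normal body temperature, according to the series' design text. Room and body temperature thus differ together under amphetamine and cannot be told apart there, so the contrasts under the drug and under saline are not alike. In the fit of 64 rats with project, 832 genes were higher (5.95%) and 807 lower (5.77%) at 16 C under amphetamine, against 0 and 1 under saline. Fewer rats entered the saline contrast, and its standard errors were wider where both are given. They were 0.50 and 0.20 for Gbp2 and 0.44 and 0.18 for Ifi47, under saline and amphetamine. The counts therefore do not compare the size of the 2 responses. No gene's temperature effect differed between saline and amphetamine after adjustment: of 13978 genes 0 passed in edgeR, the smallest adjusted p was 0.184 and 1071 (7.66%) had an unadjusted p under 0.05. Without the project term 160 genes passed as higher and 137 as lower. The values below stand side by side, and no gene is said to respond to cooling in only 1 of the treatments.

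Under amphetamine, Cirbp rose by 1.48 ± 0.29 (SE, adjusted p = 0.00054) with cooling and stood at -0.75 ± 0.66 under saline in the same fit, a difference of -2.23 ± 0.66 (unadjusted p = 0.0014, adjusted p = 0.41). Rbm3 rose by 1.23 ± 0.27 (SE, adjusted p = 0.0018) under amphetamine and was at 0.11 ± 0.60 under saline. Of 27 chaperones tested 23 were lower at 16 C under amphetamine (5.77% of all genes, lower) and 0 passed under saline. Hspa8 fell by 1.82 under amphetamine (adjusted p = 2.5e-05) and was at 0.07 ± 0.62 under saline, a difference of 1.89 ± 0.63 (adjusted p = 0.44).

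Of the 29 interferon-stimulated genes, 8 passed as higher under amphetamine (5.95% of all genes) and 1 as lower (5.77% of all genes). The lower gene was Bst2 (tetherin, log2 fold change -2.66 ± 0.27 SE, adjusted p = 2.2e-09). Gbp2 rose by 0.73 ± 0.20 (SE, adjusted p = 0.013), Tap1 by 0.63 ± 0.15 (SE, adjusted p = 0.0045) and Ifih1 by 0.77 ± 0.19 (SE, adjusted p = 0.0048). Rsad2, at 1.33 ± 0.77 under saline in this fit, rose by 2.80 ± 0.34 (SE, adjusted p = 9.4e-08) under amphetamine, as did Ifit1 (log2 fold change 1.87 ± 0.51 SE, adjusted p = 0.012). Ifit2, on the other hand, was at 0.19 ± 0.24 (SE, adjusted p = 0.67) under amphetamine. The gene whose effect differed most by p was Ifi47, an interferon-inducible GTPase outside the list, at 1.91 ± 0.44 under saline and -0.03 ± 0.18 under amphetamine, a difference of 1.94 ± 0.44 (adjusted p = 0.18), and it was named after its values were seen.

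Of 23 inflammatory genes tested, 0 passed as higher and 2 as lower under amphetamine, beside 5.95% higher and 5.77% lower of all genes. Il1b was at -0.01 ± 0.26 under amphetamine and 1.90 ± 0.61 under saline, a difference of 1.91 ± 0.61 (adjusted p = 0.44). In the same fit the 18 T cell markers gave 0 calls under either treatment, with a median of -0.16 under saline and -0.01 under amphetamine.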

How the data were processed

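Whole-blood RNA was globin-depleted, polyA-selected and sequenced in pairs with a strand-specific TruSeq kit. The authors deposited, for each rat, RSEM expected counts per gene, neither rounded nor normalized, made after clipping adapters and aligning to transcripts of rat build rn5 with an Ensembl annotation. Their processing notes name CASAVA 1.8.2, Bowtie 0.12.9 and RSEM 1.2.0. They were rounded to whole numbers here. Reads of near-identical copies were divided among genes by RSEM before deposit, and the files of the 2 groups list 18503 and 19568 genes. Other rats of the series entered only the fits of 64 rats.

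Groups came from the labels. The members, lists and comparisons were chosen with earlier results of these data known. Of 18018 genes listed in all 11 files (17366 in all 64), those with at least 10 counts in at least 5 rats were tested. The test was edgeR 4.0.16 (R 4.3.3), quasi-likelihood with TMM scaling and Benjamini-Hochberg adjustment, calling genes at an adjusted p under 0.05. Normalized counts printed are those of DESeq2 1.42.0 size factors. Nothing in the labels ties a rat to a cage or an extraction, and each is taken as a separate animal. All pairs of libraries differed by more than sampling noise. Total counts of 22818212 to 39025229 leave counting error small beside the spread between rats for all but the lowest genes. The fitting script was tested on simulated data.

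Genes were named by rule: up to 12 in each direction with the largest change among genes called with an absolute log2 fold change above 1, at least 100 normalized counts in a group, a symbol and no overlap between groups, filled to 6 by p; up to 4 of each list with the smallest p; and a fixed set of markers. Any of the 29 interferon-stimulated genes could be named, since the list led the calls. Genes named after their values were seen are said to be so, and some genes of the fixed sets are not reported here. Promoters came from RefSeq, build GRCr8, matched by symbol, and only the 250 bases before the start were searched. Alternatives were other scalings, filters and tests, fits without rats above 5000 Mb counts and without each rat, fits with project, and each 22.5 C project alone.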

Additional observations from a re-analysis of the deposited data

Results flagged for a closer look

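The sums of each list and the levels of each named gene were examined in both groups, 392 groups of rats in all, for a single rat far from the others (Dixon's criterion at 95%). It marked 21. The groups hold the same rats throughout and the sums include named genes, so the marks are not independent. Whether their number is unusual was not tested. Rat 17 at 22.5 C stood high and rat 2 at 16 C stood low for Rbm3, at 3728 and 1853 normalized counts, and with it for the sum of Cirbp, Rbm3 and Rbmx, at 5284 and 2686. Rat 17 also stood low for Ifit1 (376). At 22.5 C, rat 19 stood high for Tmco4 (815), Per2 (921) and Adam17 (2917), and rat 21 high for Alb (1673) and so for the sum of genes that blood does not use (1767).

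Most of the marks at 16 C fell on rat 1. It stood high for Ucp2 (312113 normalized counts) and the thermogenesis list that Ucp2 dominates (336086), for Mb (181), for Fcer1a, a chain of the IgE receptor of basophils (239), and for Sparc, a matrix protein (761), and it stood apart from the others for Siglec5 (363), the proteasome subunit Psmd4 (6815) and the pseudogene Rpl36-ps3 (2.76). Rat 4 stood apart for the phosphodiesterase Pde3b (256) and for Mcpt8, a basophil protease that was at 0 in it, and rat 5 for Txn1, thioredoxin (4461).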

How the results depend on the processing

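No paired analysis was possible because the groups compared share no replicate numbers. The counts of genes called depended on nearly every choice, and of the alternatives only the removal of globin genes (60 higher and 12 lower) kept both within 1.5 times the 59 higher and 10 lower of all 11 rats. DESeq2 size factors gave 109 and 33, upper-quartile factors 356 and 698, the DESeq2 Wald test 1062 and 639, no filter 23 and 1, and a filter at 50 counts 325 and 191. Against rats 17 to 19 alone 1 and 1 were called, and against rats 20 to 22 alone 635 and 243. All 64 rats gave 0 and 1 with project and 124 and 7 without it. Leaving out 1 rat gave 0 to 1350 higher and 0 to 1008 lower, the upper ends being without rat 19. Without rats 20 and 22 the counts of 0 and 0 became 824 and 483 with the DESeq2 Wald test and 0 and 1 without a filter, ranged from 0 to 1436 higher and 0 to 751 lower when 1 more rat was left out, again highest without rat 19, and stayed at 0 with the other scalings and the stricter filter. Leaving out rats 20, 22 and 19 together, an alternative chosen after seeing the data, gave the same 1436 and 751. The difference between saline and amphetamine gave 297 genes without the project term and 0 under the other alternatives. Of 3762 log2 fold changes of named genes under these alternatives, 2945 kept their direction and their side of the threshold, 332 passed where they had not, and 412 no longer passed. In 69, from 27 genes, the sign changed but neither value passed, 20 of them with project. The sign changed in 4 where the value passed in 1 of the fits. Those were Plekha1 at 0.15 and Rpl36-ps3 at 2.33 with project, and the heart muscle genes Mybpc3 and Tnnc1, which were at 2.28 and 1.77 without rats 20, 22 and 19 and ranged over the fits that left out rats from -2.90 to 2.28 and from -1.06 to 1.77. The cause of the other shifts was not tested.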

Other observations

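The genes given here lay outside the lists, were among the 69 called at 16 C and were named after their values were seen. Nampt, the enzyme of NAD salvage that is also released as a cytokine, had 1834, 1525, 1642, 1530 and 1574 normalized counts in the 16 C rats and 617 to 1008 (median 828) at 22.5 C (log2 fold change 0.96 ± 0.13 SE, adjusted p = 0.018, edgeR), without overlap. Birc3, an inhibitor of apoptosis induced by NF-kB, was at 2319 to 5292 against 877 to 1960 (log2 fold change 1.40 ± 0.26 SE, adjusted p = 0.046). Ripk3, a kinase of necroptosis, was at 1802 to 2524 against 571 to 1580 (log2 fold change 1.33 ± 0.26 SE, adjusted p = 0.046), and Adam17, the protease that sheds TNF, at 2921 to 5410 against 1267 to 2917 (log2 fold change 1.27 ± 0.24 SE, adjusted p = 0.046). In all 4 the highest 22.5 C rat was rat 19.

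Some calls rest on genes whose counts may be shared with near-identical copies. RT1-T24-3, a class I molecule of the rat major histocompatibility complex, rose by 1.02 ± 0.19 (SE, adjusted p = 0.046) by edgeR, and its family has many close members. Slfn1, of the interferon-inducible schlafen family, rose by 1.30 ± 0.23 (SE, adjusted p = 0.042). The largest fall belonged to the pseudogene Rpl36-ps3, at 0 to 2.76 normalized counts at 16 C and 13 to 30.1 at 22.5 C, a log2 fold change of -5.05 that became 2.33 with project as a term. With so few counts at 16 C the fitted value is no bound on the fold. It is 1 of the 2 called genes whose sign changed with project.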
